A study of Mus musculus with 30 samples.

Results

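Levels of 38 genes of DNA replication were followed through RNA sequencing of mouse bone marrow stem and progenitor cells, of marrow with myeloid disease and of cultured marrow stromal cells. The genes were taken by symbol from a list of core replication genes. All 38 were found in each of the 3 tables, which together hold 21039 genes. By role there are 5 licensing genes (Orc1, Orc2, Orc6, Cdc6, Cdt1), the 6 MCM helicase genes (Mcm2 to Mcm7) and 6 genes of helicase activation (Mcm10, Cdc45, Gins1 to Gins4). A further 8 encode polymerase and primase subunits (Pola1, Pola2, Prim1, Prim2, Pold1, Pold2, Pole, Pole2), and 6 encode the sliding clamp and its loader (Pcna, Rfc1 to Rfc5). The remaining members join Okazaki fragments (Fen1, Lig1), bind single-stranded DNA (Rpa1, Rpa2) or supply deoxynucleotides (Rrm1, Rrm2, Tyms).

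Before S phase the origin recognition complex, Cdc6 and Cdt1 load the MCM hexamer onto DNA as an inactive helicase. In S phase Cdc45 and the GINS complex join it, primase and polymerase alpha start each strand, and polymerases delta and epsilon extend them with the clamp Pcna, which the Rfc complex loads. Most of these genes are transcribed under E2F factors as cells leave G1, so in mixed marrow their summed RNA follows both the share of cycling cells and the amount per cell. In bulk samples such as these, fewer cycling cells and less RNA per cell cannot be told apart.

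LSK cells are Lin-, Sca1+, Kit+ marrow cells, the sorted fraction that holds stem and multipotent progenitor cells. They came from 4 groups of 3 libraries, all C57BL/6 and all taken before disease: WT mice with no transplant, WT marrow carrying a luciferase shRNA in WT recipients ("transplanted WT"), and Egr1+/-, Apc del/+ marrow carrying a Trp53 shRNA in WT recipients ("EAP"), either without ENU or with ENU on both sides, donor and host ("EAP with ENU"). ENU, N-ethyl-N-nitrosourea, is an alkylating mutagen. Transplanted groups were sampled about 2 months after transplant. Whole bone marrow came from 6 mice with MDS (myelodysplastic syndrome), whose Egr1+/-, Apc del/+ graft carried the luciferase shRNA and which all had ENU on both sides, and from 6 mice with AML (acute myeloid leukaemia), whose graft carried the Trp53 shRNA. Of the AML mice, 3 had ENU to donor and recipient (AML 1, 4 and 5), 2 had none (AML 2 and 3) and 1 had ENU to the recipient only (AML 6). Disease and Trp53 shRNA therefore cannot be told apart in the marrow. Stromal cells were cultured from compact bone of WT mice given 10% ethanol ("mock", 3 libraries) or 100 mg/kg ENU (3 libraries) 1 month before, and grown to passage 1 or 2. The sources used here give no ages or sexes. A separate animal is named for each marrow library but not for LSK or stromal libraries, where p-values measure only the spread between these samples.

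Some libraries stood apart. WT 2, transplanted WT 3 and EAP 1 had summed LSK values of 1130054 to 1437201, against 808377 to 1034526 in the other 9, and EAP 1 also carries a transplant label of WT marrow that goes against its other labels. In the marrow, B cell markers summed to 2423 in AML 3 and to at most 143 in the other 11 libraries, and T cell markers to 2387 in AML 4 and 3754 in AML 5 against 854 in AML 6 and 55.2 to 134 elsewhere. In the stromal cultures mock 3 and ENU 3 had the lowest sums of mitosis genes. Trp53 lay at 213 to 370 in both WT groups of LSK cells and at 65.5 to 173 in both EAP groups, and in marrow at 43.2 to 97.9 in MDS and 23.0 to 58.0 in AML. Egr1 and Apc overlapped between the genotypes in LSK cells; the sources used here do not say which exons the alleles remove. Kit (65.3 to 598) and Ly6a, which encodes Sca1 (78.0 to 245), were present in every LSK library. Cxcl12 (459 to 2795 TPM) and Col1a1 (361 to 2146 TPM) were high in every stromal library, where the leukocyte gene Ptprc was at most 1.29 TPM. The 5 blood cell markers, Ptprc among them, summed to 6.89 to 91.9 TPM in mock and 15.5 to 44.1 TPM in ENU cultures. Late neutrophil markers summed to at most 34.8 TPM in mock and 82.7 TPM in ENU cultures, and endothelial markers to at most 24.1 and 14.8 TPM.

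Promoter windows of 300 bases (250 before to 50 after the start; RefSeq, GRCm38.p6) were found for 31 of the 38 genes. They were searched on both strands for the E2F words TTTCCCGC, TTTGGCGC, TTTCGCGC and TTTGCCGC. Matches may overlap one another. At least 1 word stood in the windows of 13 of the 31 (41.9%), against 704 of 27025 genes with a window (2.6%). The CCAAT box, bound by NF-Y, was found for 67.7% of the members and 41.1% of all genes. The CHR words TTTGAA and TTCGAA, known from genes of mitosis, were found for 22.6% and 21.7%. The windows of 3 MCM genes are shown as examples of members that carried more than 1 word. Each reads 5′ to 3′ on the gene's strand with the E2F words in capitals.
Mcm3: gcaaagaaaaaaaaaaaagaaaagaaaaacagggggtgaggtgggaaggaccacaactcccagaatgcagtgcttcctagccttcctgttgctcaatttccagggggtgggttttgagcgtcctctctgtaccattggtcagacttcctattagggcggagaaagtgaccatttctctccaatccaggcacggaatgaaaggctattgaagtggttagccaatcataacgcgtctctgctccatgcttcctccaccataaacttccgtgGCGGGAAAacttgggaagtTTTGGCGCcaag
Mcm5: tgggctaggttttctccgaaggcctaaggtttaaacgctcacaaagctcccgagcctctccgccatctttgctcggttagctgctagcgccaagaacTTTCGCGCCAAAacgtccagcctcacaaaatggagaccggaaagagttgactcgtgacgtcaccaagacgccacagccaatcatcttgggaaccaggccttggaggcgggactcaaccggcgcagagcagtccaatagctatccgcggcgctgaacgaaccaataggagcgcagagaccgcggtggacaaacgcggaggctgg
Mcm6: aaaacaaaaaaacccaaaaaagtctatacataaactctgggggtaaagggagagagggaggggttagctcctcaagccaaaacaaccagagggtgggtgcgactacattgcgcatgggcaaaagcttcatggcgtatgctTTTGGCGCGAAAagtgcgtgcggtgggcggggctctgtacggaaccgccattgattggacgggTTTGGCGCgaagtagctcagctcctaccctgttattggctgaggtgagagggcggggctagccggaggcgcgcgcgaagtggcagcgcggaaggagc
These lie at chr1:20820263-20820562 (minus strand), chr8:75109259-75109558 (plus strand) and chr1:128359656-128359955 (minus strand). Counted from the transcription start, the first bases of the words in Mcm3 were at positions 20 and 39, inside the transcribed part. In Mcm5 the words at -153 and -149 overlap in one run on opposite strands. Mcm6 held 3 words, an overlapping pair at -110 and -106 and another at -47. Rrm2, Pcna, Fen1 and Mcm2 had none of the 4 words in their windows. A match is a description of letters and does not show that a factor binds there.

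Levels between genes were compared per kilobase of transcript. In WT LSK cells the highest medians were those of Mcm6 (313 per kb), Pcna (300 per kb) and Mcm3 (164 per kb). The lowest were those of Rfc1 (0.809 per kb), Pole (3.84 per kb), Orc1 (5.39 per kb) and Mcm10 (7.94 per kb). In MDS marrow Rrm2, the regulated subunit of ribonucleotide reductase, ranked first at 145 per kb, followed by Mcm6 at 116 and Rrm1, the catalytic subunit, at 106 per kb. Gins2 (4.89 per kb) and Gins3 (8.02 per kb), both subunits of GINS, ranked last there. The place of Gins2 rests on a transcript length of 3900 bases, and in mock stromal cells it ranked 10 of 38 at 41.8 TPM. In mock stromal cells Rrm2 was again first at 274 TPM, then Pcna at 231 TPM. Orc1, the origin recognition subunit, stood near the bottom in every source (11.3 per kb in MDS, 3.89 TPM in mock cells). Rfc1, the large subunit of the clamp loader, was listed at 0.0517 to 27.1 in LSK cells and at 0.177 to 9.76 TPM in stromal cells but at 120 to 275 in marrow. Its LSK and stromal values are left out of the summaries of spread and length below.

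In LSK cells the libraries of a group differed widely in 3 of the 4 groups. The median coefficient of variation over 37 members was 28.2% in WT, 23.8% in transplanted WT, 38.5% in EAP and 8.06% in EAP with ENU. In those 3 groups the library with the high total stood off from the other 2 for many members, upward for most and downward for a few. Pcna stood at 928 in WT 2 against 455 and 446 in WT 1 and WT 3, at 1098 in transplanted WT 3 against 579 and 579, and at 1392 in EAP 1 against 356 and 527. Fen1, the flap nuclease, went from 244 and 241 in the other WT libraries to 777 in WT 2, and from 253 and 321 to 1185 in EAP 1. Rfc4 reached 883 in EAP 1 against 179 and 174. Mcm7 was on the other side, at 74.8 in WT 2 against 149 and 141 and at 41.3 in EAP 1 against 122 and 178. Pold1, the catalytic subunit of polymerase delta, likewise stood at 72.4 in WT 2 and 75.3 in EAP 1 against 136 to 310 in the other 10 libraries.

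**Figure D1:**
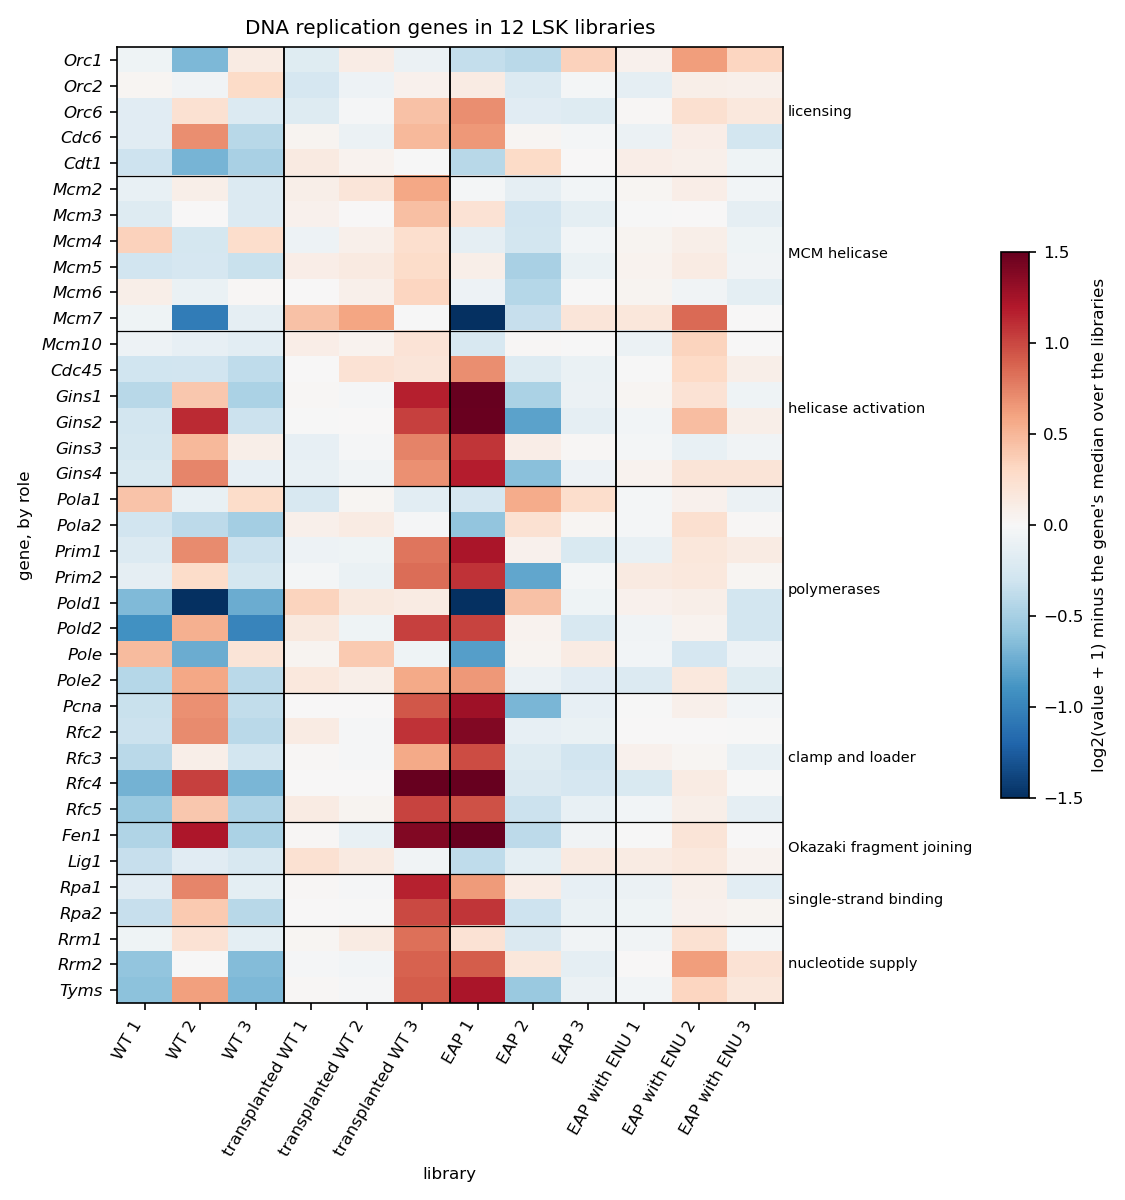
Heat map of 37 of the 38 members (rows, by role; Rfc1 not shown) in the 12 LSK libraries (columns, by group). Colour is log2(value + 1) minus the gene's median over the 12 libraries, with colours held at 1.5 beyond that size. EAP 1 held the highest value of 17 of the 38 members (24.5% of all genes) and transplanted WT 3 that of 8 (5.81%).

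Transcript length went along with this spread. Each library was set against the libraries of its own group that did not stand apart. The 12 members with the shortest transcripts (1087 to 2143 bases, among them Gins1, Rfc4, Pcna and Prim1) had median log2 deviations of 0.88 in WT 2, 0.90 in transplanted WT 3 and 1.29 in EAP 1. For the 12 longest (3371 to 7163 bases, among them Pole, Pola1, Pold1 and Mcm5) these were 0.03, 0.23 and 0.15. Across the 37 members the Pearson r with log2 length was -0.46, -0.41 and -0.53. Over 9207 genes with a mean of at least 5 it was -0.42, -0.40 and -0.52 in the same libraries, so the correlation was one of the whole table. The level differed. Those genes were cut by their own lengths into 3 classes. The shortest class had median deviations of 0.57, 0.39 and 0.90, and the longest -0.64, -0.39 and -0.85. In each library the short and the long members lay higher than these. These correlations describe genes within libraries, and genes are not independent replicates. Not every member followed length, since Rfc2, Rpa1 and Gins2, long by the 1 annotated transcript taken for each, were high in all 3. Exons of Rfc2 and Gins2 overlap other genes on the opposite strand by 952 and 2758 bases. The part of transcript length in the group comparisons was not tested, and each LSK comparison is also given without these 3 libraries. EAP 2 and EAP 3, which stay in those fits, were each set against the other. Over the 9207 genes r was 0.29 in EAP 2 and -0.29 in EAP 3, so they still differed by length. Across the 37 members it was 0.04 and -0.04.

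**Figure D2:**
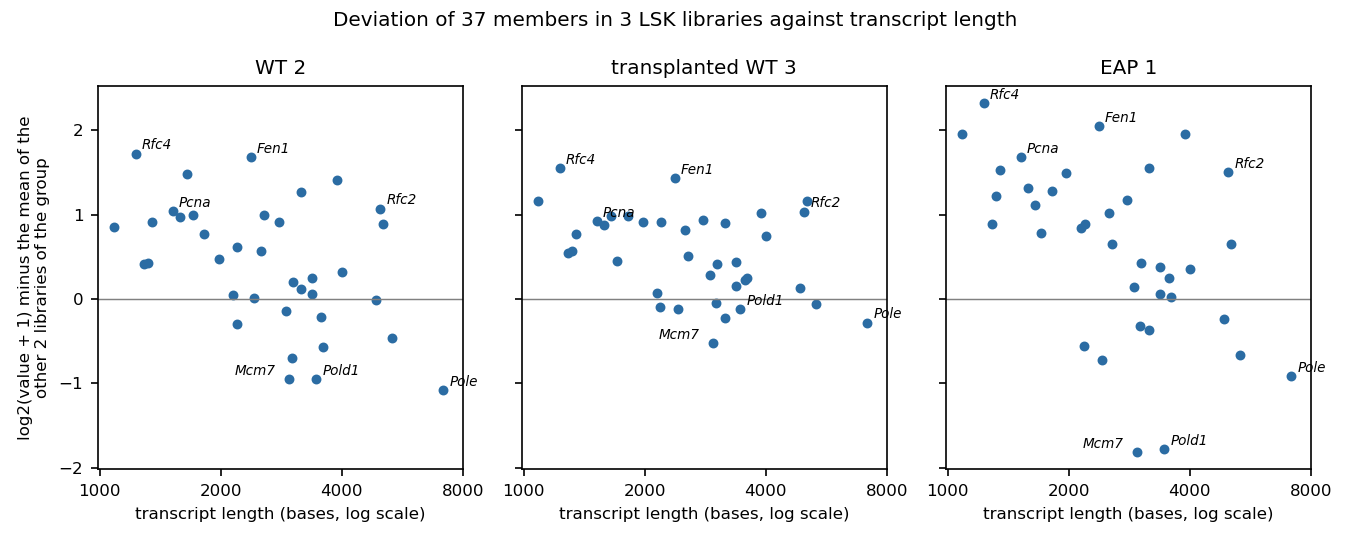
Log2(value + 1) in WT 2, transplanted WT 3 and EAP 1 minus the mean of the other 2 libraries of the group (vertical) against transcript length on a log axis (horizontal), 1 point for each of 37 members. Short transcripts such as Rfc4 and Pcna sit above 0 in all 3 panels, and Pole, the longest at 7163 bases, sits below 0 in all 3.

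Transplanted WT cells were compared with WT cells that had no transplant. No member passed limma's test at an adjusted p of 0.05, which 0.0256% of all genes tested did. Under an unadjusted p of 0.05 were 3 members, all higher after transplant, beside 855 of the 11730 genes tested, a similar share. The median difference of the members was 0.33 (log2), against -0.00069 over all genes, with 34 positive and 4 negative; it was 0.14 without transplanted WT 3 and 0.35 without WT 2, transplanted WT 3 and EAP 1. Pold1 was 145, 72.4 and 136 in WT and 288, 253 and 248 in transplanted WT. Every transplanted library was above every WT library, and the difference was 1.21 ± 0.45 (log2, SE, adjusted p = 0.608). Cdt1, which loads MCM with Cdc6, was 110, 83.6 and 97.0 in WT and 151, 142 and 136 in transplanted WT, a difference of 0.56 ± 0.21 (adjusted p = 0.608). Mcm5 was 319, 328 and 310 against 417, 429 and 470, a difference of 0.46 ± 0.21 (adjusted p = 0.678). Pola2, the B subunit of polymerase alpha (0.46, adjusted p = 0.710), and Rrm2 (0.69, adjusted p = 0.722) came next and did not pass either.

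In 10 members every transplanted library exceeded every WT library, a state shared by 7.71% of all genes. These were Mcm2, Mcm3, Mcm5, Mcm7, Mcm10, Cdc45, Cdt1, Pola2, Pold1 and Lig1, the ligase of Okazaki fragments. They include 4 of the 6 MCM genes and none of the clamp and loader genes. No member was lower without overlap, against 8.42% of all genes. Mcm6 (904 ± 56.9 against 994 ± 117, SD, n = 3) and Mcm4 (248 ± 53.7 against 240 ± 26.7) overlapped. With the 3 libraries of high totals left out, 3 members passed, all higher after transplant: Pold2, the second subunit of polymerase delta (0.99, adjusted p = 0.0265), Rfc4 (0.70, adjusted p = 0.0328) and Pold1 (0.94, adjusted p = 0.0379), among 490 genes called. In those libraries Pold2 read 152 and 143 in WT and 316 and 273 in transplanted WT. With a term for the 3 libraries in place of leaving them out, Pold1, Pold2 and Rfc5 passed, among 275 genes. With all libraries and no such term 3 of 11730 genes were called, so both fits raised the calls over the whole table. Early neutrophil markers, all 5 of them measured, summed to 2008 to 2186 in WT and 3193 to 7252 in transplanted WT. The 8 LSK and stem cell markers summed to 2655 to 3525 in WT and 2331 to 2450 in transplanted WT. The part of these cell types in the result was not tested.

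EAP cells without ENU were compared with transplanted WT. None of the 38 members passed (0.0256% of all genes did), and none was under an unadjusted p of 0.05. The median was -0.11, against -0.02 over all genes, and 27 of 38 differences were negative. It was -0.38 without EAP 1, 0.12 without EAP 2 and 0.14 without transplanted WT 3, so its sign turned with single libraries. With WT 2, transplanted WT 3 and EAP 1 all left out it was -0.18 with 29 of 38 negative, and 1 member was higher and 1 lower at an unadjusted p of 0.05. With a term for them it stayed at -0.11 and 4 were lower and none higher at that p. No member passed in either fit. The MCM genes were negative 6 of 6, with a median of -0.32. Mcm2 was 383, 355 and 380 in EAP and 417, 444 and 585 in transplanted WT. Mcm5 was 413, 277 and 362 against 417, 429 and 470, so that the nearest libraries almost met. Mcm6 was 855, 668 and 898 against 907, 949 and 1127. Mcm10, which helps start the helicase, was the remaining member without overlap, and these 4 lower members stand beside 3.18% of all genes lower in this way. No member was higher without overlap, against 3.80% of all genes. Mcm7 had the smallest p of the members, at 41.3, 122 and 178 in EAP against 212, 236 and 155 (-1.03 ± 0.48, adjusted p = 1.00). Rrm1 (-0.35) and Pold1 (-0.60) did not pass either. Early neutrophil markers summed to 18538 in EAP 1, 2873 in EAP 2 and 3425 in EAP 3, against 3193 to 7252 in transplanted WT. Their part was not tested.

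ENU given to donor and recipient was compared with no ENU in EAP cells. No member passed, nor did any gene (0% of 11730), and no member was under an unadjusted p of 0.05. The median was -0.01, with 17 positive and 21 negative. Without EAP 1 it was 0.18. With WT 2 and transplanted WT 3 out as well, 8 members were higher and 1 lower at an unadjusted p of 0.05, with none passing. The share of all genes at that p was not counted there. Mcm7 again had the smallest p (176, 283 and 157 with ENU; 1.03 ± 0.48, adjusted p = 0.909). The other MCM genes were all positive, from 0.03 up. Orc1 was 17.97, 26.9 and 21.6 with ENU and 13.2, 12.7 and 21.9 without, overlapping (0.48, adjusted p = 0.909). Gins3 was the single member lower without overlap, at 34.0, 32.3 and 33.5 against 74.6, 37.3 and 35.4; 5.98% of all genes were lower in this way. None was higher without overlap, against 6.68% of all genes. Lig1 (0.24) and Mcm5 (0.21) completed the 5 smallest p-values. Early neutrophil markers summed to 7263 to 10513 with ENU. Without it they summed to 18538 in EAP 1, 2873 in EAP 2 and 3425 in EAP 3. The 8 of 10 erythroid markers measured summed to 263 to 474 with ENU and 132 to 178 without. For the 5 of 7 monocyte and macrophage markers measured the sums were 70.6 to 160 and 40.0 to 42.2. The part of these cell types was not tested.

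Against transplanted WT, which the EAP comparison above shares, EAP cells with ENU had 30 of 38 negative differences with a median of -0.19. With WT 2, transplanted WT 3 and EAP 1 left out the median was -0.01 with 21 negative, none under an unadjusted p of 0.05, and with a term for them it was -0.01 with 19 negative and 1 lower at that p. Early neutrophil markers summed to 7263 to 10513 in EAP with ENU against 3193 to 7252 in transplanted WT, and the 5 of 7 monocyte and macrophage markers measured to 70.6 to 160 against 34.6 to 59.2; their part was not tested. No member passed (0.0171% of all genes did) and none was under an unadjusted p of 0.05. Pold1 was lower without overlap, at 238, 243 and 188 against 288, 253 and 248, a state shared by 8.61% of all genes. None was higher without overlap, against 9.90%. Orc1 (0.39), Mcm2 (-0.26), Rpa1, the large subunit of the single-strand binding complex (-0.44), Rrm1 (-0.28) and Pole2 (-0.35) had the smallest p-values and adjusted p = 1.00 each.

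In bone marrow AML was compared with MDS. No member passed limma's test, which 3.20% of all genes did, and none passed edgeR's quasi-likelihood test on the recovered reads. By limma 7 members were under an unadjusted p of 0.05, beside 3302 of the 11273 genes tested, which is a larger share. Of the 7 members 3 were higher (Pold1, Rfc1, Rfc2) and 4 lower in AML (Rrm2, Rrm1, Gins3, Gins4). The median over the members was 0.03, beside 0.04 over all genes, and 21 of 38 were positive. All MDS mice had ENU on both sides; against the 3 AML mice that also had it, the median was 0.30, 31 were positive, 4 were higher and 1 lower at an unadjusted p of 0.05, and neither a member nor any other gene passed.

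Rrm2 (chr12:24708241-24714146, mm10) came nearest to the threshold. It was 241 at its lowest, 319 in the median and 454 at its highest in MDS. In AML it was 267 in AML 1, 84.6 in AML 2, 138 in AML 3, 241 in AML 4, 155 in AML 5 and 95.9 in AML 6. Only AML 1 and AML 4 reached the MDS range, and the difference was -1.08 ± 0.28 (log2, SE, adjusted p = 0.0541 by limma, 0.0608 by edgeR). Without AML 1 Rrm2 passed (-1.25, adjusted p = 0.0109) beside 21.9% of all genes, as it did without AML 4 (-1.22, adjusted p = 0.0447) beside 2.96%. Against the 3 AML mice with ENU on both sides alone it was -0.56 (adjusted p = 0.158). Its partner Rrm1 was 338 to 567.9 in MDS and 144 to 417 in AML (-0.55 ± 0.24, adjusted p = 0.153). Tyms, which makes thymidylate, was 48.0 to 85.9 in MDS and 29.2 to 122 in AML.

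Set against the helicase of the same library, Rrm2 was 1.11 to 1.48 times the mean of Mcm2 to Mcm7 in the 6 MDS libraries. In AML 1 the ratio was 1.06, and in AML 2 to AML 6 it was 0.640, 0.438, 0.564, 0.433 and 0.377. For Rrm1 the ratio was 1.56 to 1.94 in MDS and 0.761 to 1.43 in AML. These ratios were formed after the values had been seen and carry no test. Erythroid markers, of which 8 of 10 were measured, summed to 7566 to 25374 in MDS and 372 to 5667 in AML, and AML 4 (5667) and AML 1 (3433) were the highest of the AML libraries in them as they were in Rrm2. The part of erythroid cells in the Rrm2 difference was not tested.

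**Figure D3:**
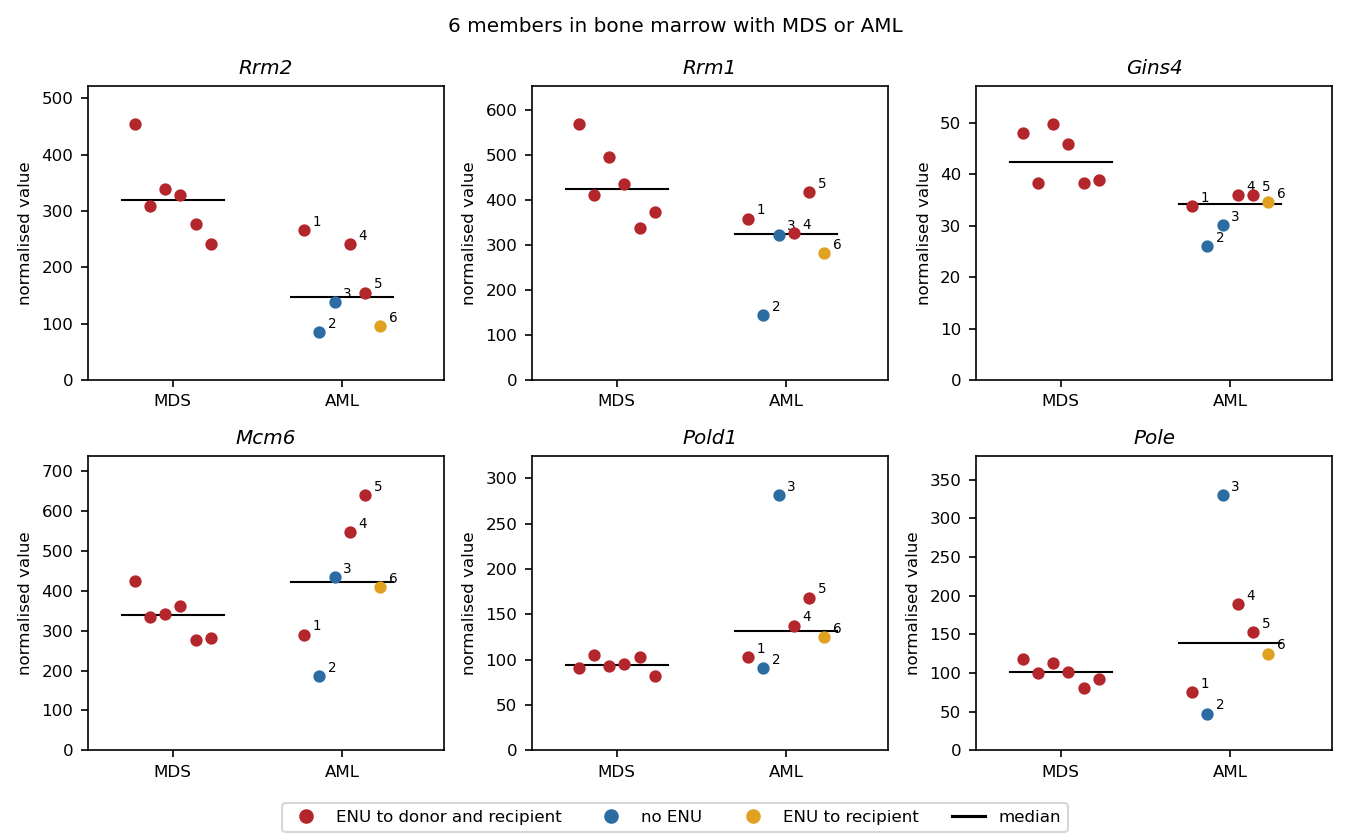
Normalised values of Rrm2, Rrm1, Gins4, Mcm6, Pold1 and Pole in 6 MDS and 6 AML marrow libraries, 1 point per mouse, coloured by ENU exposure, AML points numbered, with the group median as a line. Rrm2 sits at 241 to 454 in MDS and 84.6 to 267 in AML, while AML 3 alone reaches 331 for Pole.

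Gins4 (chr8:23226616-23237659, mm10) was the single member without overlap, at 38.2 to 49.7 (median 42.4) in MDS and 26.0 to 36.0 in AML; 2.13% of all genes were lower in this way. Its difference of -0.39 ± 0.13 had an adjusted p of 0.0975. Gins3 was 16.0 to 30.1 in MDS and 10.7 to 20.05 in AML (-0.50 ± 0.20, adjusted p = 0.129). Gins1 was 17.1 to 29.2 against 11.3 to 26.5 (-0.16, adjusted p = 0.623), and Gins2 15.8 to 21.1 against 10.2 to 33.8 (0.16, adjusted p = 0.669). No member was higher in AML without overlap, against 1.71% of all genes. The licensing genes were negative 5 of 5 with a median of -0.32, none of them under an unadjusted p of 0.05.

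Pold1 (chr7:44532746-44548849, mm10) was the lowest in p of the members on the higher side. In MDS it was 82.0 to 105, and in AML 103, 91.2, 282, 138, 168 and 125 for AML 1 to AML 6, a difference of 0.57 ± 0.23 (adjusted p = 0.136). Rfc1 was 125 to 152 in MDS and 120 to 275 in AML, and Rfc2 88.0 to 110 and 91.7 to 163. All 6 clamp and loader genes and 7 of 8 polymerase genes had positive differences, with medians of 0.20 and 0.28. Mcm6 was 275 to 425 in MDS and 185 to 640 in AML, and Mcm2 164 to 261 and 89.6 to 403. The MCM genes were positive 5 of 6, the exception being Mcm5 (-0.18), and their largest difference was that of Mcm3 (0.24 ± 0.25, adjusted p = 0.544).

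The AML libraries differed far more among themselves than the MDS libraries did. Their median coefficient of variation over the same 37 members was 39.5%, against 16.5% in MDS. AML 2 held the lowest value of 34 of the 38 members, and of 13.3% of all genes. Its Mcm2 read 89.6 against 164 to 403 elsewhere, its Pcna 70.4 against 102 to 227, and its Orc1 8.27 against 16.3 to 70.8. AML 3 held the highest value of 14 members and of 26.5% of all genes, and AML 4 that of 11 members and 10.6% of all genes. In AML 3 the catalytic subunit of polymerase epsilon, Pole (chr5:110286306-110337474, mm10), was 331 against 47.6 to 189 in the other 11 libraries, while its partner Pole2 was 13.4 against 12.2 to 27.2. The ratio of Pole to Pole2 was 24.6 in AML 3 and 3.73 to 7.06 elsewhere. Pold1 (282) and Pold2 (115 against 28.4 to 74.5) were highest there too. AML 3 also had the B cell markers, with Cd79a at 409, and early neutrophil markers at a sum of 52.7 against 1870 to 9939 elsewhere. AML 4 led the MCM genes, with Mcm2 at 403 and Mcm3 at 505. AML 5 was highest for Mcm6 (640), Prim2 (95.7) and Pola1 (122). Both had the high T cell marker sums. The part of lymphoid cells in these levels was not tested. Without AML 3, 4 and 5 no member passed, the median was -0.37, 35 of 38 differences were negative and 11 were lower at an unadjusted p of 0.05. These 3 also have the largest sums of the members among the AML libraries. Without AML 2 the median was 0.26, 28 of 38 were positive, and 7 members were higher and 2 lower at that p. Without any other single library the median lay between -0.08 and 0.10. The share of all genes at that p was not counted in these fits. The balance of higher and lower members thus depended on which AML libraries were included.

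**Figure D4:**
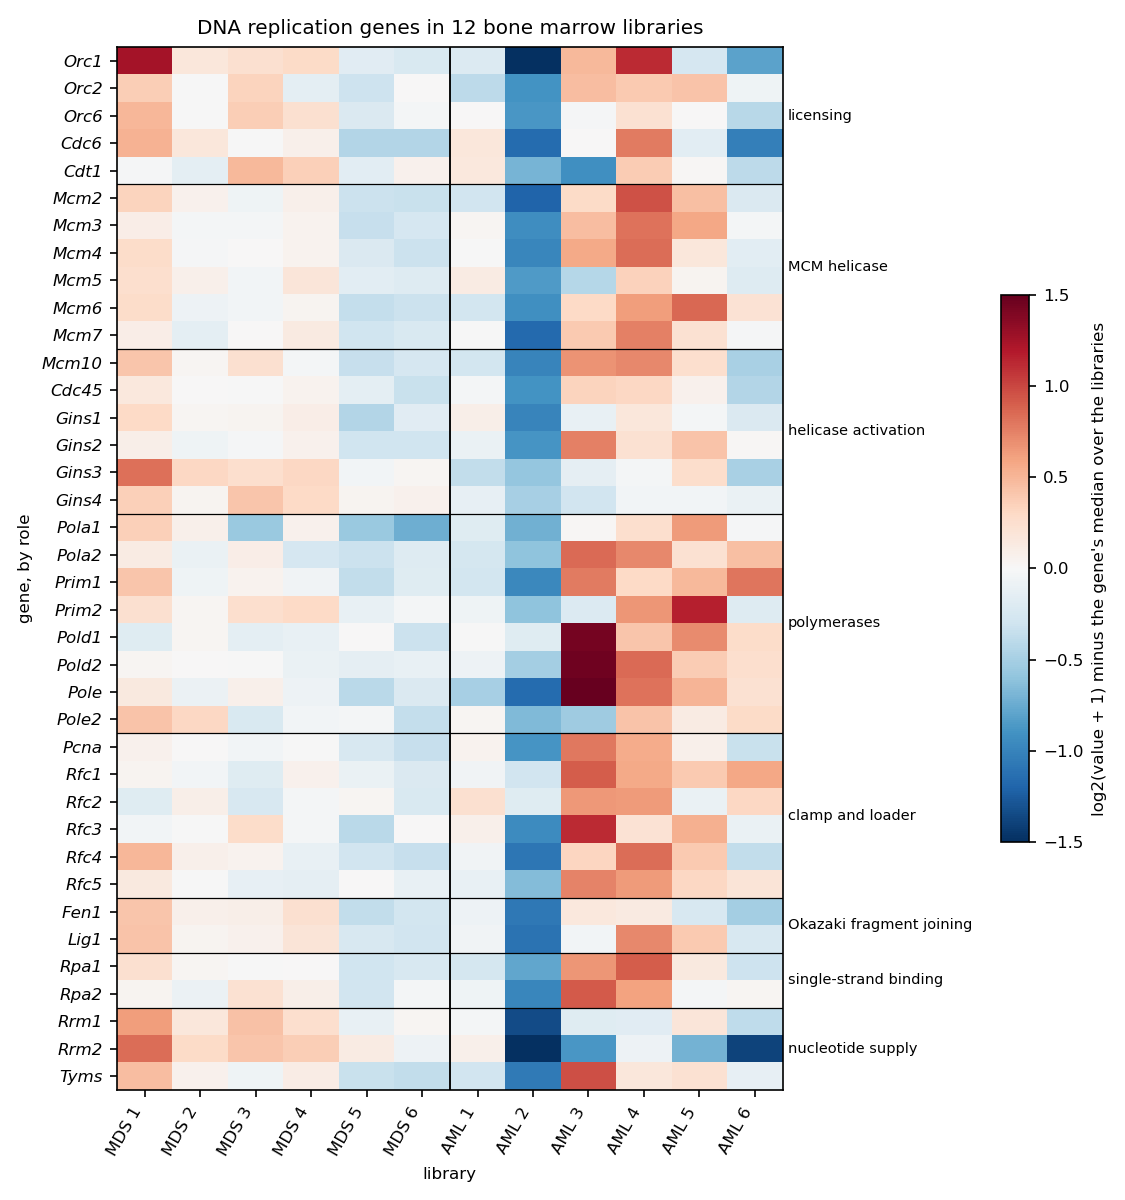
Heat map of the 38 members (rows, by role) in 6 MDS and 6 AML marrow libraries (columns). Colour is log2(value + 1) minus the gene's median over the 12 libraries, with colours held at 1.5 beyond that size. AML 2 is lowest for 34 members, and AML 3 and AML 4 hold the highest value of 14 and 11 (26.5% and 10.6% of all genes).

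Within AML, mice with ENU to donor and recipient (AML 1, 4 and 5) were set against those without (AML 2 and 3). No member passed in limma (0.408% of all genes did) or edgeR. By limma 7 were under an unadjusted p of 0.05, all higher with ENU. Of the 11275 genes tested 848 were higher and 566 lower at that p. The median was 0.40, against 0.03 over all genes, and 35 of 38 were positive. Cdt1 was 130, 152 and 118 with ENU and 71.4 and 61.0 without (1.00 ± 0.24, adjusted p = 0.0965). Mcm5 was 343, 401 and 325 against 174 and 233 (0.81 ± 0.23, adjusted p = 0.146). Prim2, the regulatory primase subunit, was 40.4, 67.1 and 95.7 against 27.3 and 36.4 (1.00, adjusted p = 0.220). Rrm2 was 267, 241 and 155 against 84.6 and 138 (0.99, adjusted p = 0.237). Pole2, also among the 5 smallest p-values, was 20.3, 27.2 and 21.7 against 12.2 and 13.4 (0.79, adjusted p = 0.271). Those 5 with Orc6, Gins1, Gins4 and Rrm1 made 9 members higher without overlap, a state shared by 8.31% of all genes, and none was lower (6.69% of all genes). All 6 MCM genes were positive, from 0.54 to 0.83.

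This comparison rested on single libraries, and the median was -0.22 without AML 2 and 1.08 without AML 3. With AML 2 left out the group without ENU was AML 3 alone, assumed to vary like the other groups, and 4 members passed: Cdt1 (1.11, higher with ENU), Pold1 (-1.07), Pold2 (-1.08) and Pole (-1.34), beside 2559 genes (22.7%). With AML 3 left out that group was AML 2 alone. The Mcm7 difference was then 1.49, and all 38 members were positive. With AML 1 left out Prim2 was the only member that passed (1.32, adjusted p = 0.0388). The share of all genes passing in that fit is not given here. Of the libraries without ENU, AML 2 was lowest for 34 members and AML 3 highest for 14. The ENU group also held AML 4 and AML 5, with the highest T cell markers, and the group without ENU the library with B cell markers.

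In stromal cultures ENU was compared with mock treatment given to the mice 1 month before. No member passed limma's test, no gene did (0% of 12089), and none of the members was under an unadjusted p of 0.05. The median was 0.16, against -0.01 over all genes, with 34 of 38 positive. It was -0.18 without mock 3, -0.01 without ENU 1 and 0.54 without ENU 3, and 0.14 without mock 3 and ENU 3. The spread between cultures was larger than the spread between treatments. Mock 3 had the lowest mock value for 34 members and ENU 3 the lowest ENU value for 35, against 46.0% and 47.9% of all genes. The mean of cultures 1 and 2 was 2.30 times culture 3 in mock and 2.20 times in ENU, as the median over members, and 1.04 times for all genes in both. Cdc45, which completes the active helicase, was 20.5, 16.0 and 2.91 TPM in mock 1 to 3 and 22.2, 19.6 and 6.89 TPM in ENU 1 to 3. Rrm1 was 137, 112 and 29.8 against 143, 147 and 42.0 TPM. Cdt1 did not share this (16.8, 15.4 and 17.2 against 19.5, 16.8 and 23.7 TPM), nor did Rpa1 (111, 91.6 and 115 against 125, 92.5 and 118 TPM). The 22 mitosis genes summed to 245 TPM in mock 3 and 448 TPM in ENU 3 and to 1048 to 1450 TPM in the other 4 cultures. Stromal markers, all 8 measured, summed to 4544 TPM in mock 3 and 2177 TPM in ENU 3, lower than in the other 4 (6390 to 7737 TPM).

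Cultures of the same number deviated together, so ENU and mock were also compared number by number. In 23 of the 38 members ENU was higher in all 3 pairs, against 17.7% of all genes, and in none was it lower in all 3, against 19.6%. Mcm7 (chr5:138164583-138172422, mm10) was 30.9 and 53.3 TPM in the first pair, 26.5 and 45.1 in the second and 10.2 and 15.0 in the third, mock before ENU, and had the largest mean difference (0.68 ± 0.60, SE, adjusted p = 1.00). Mcm5 was 42.8 and 48.9, 33.8 and 46.6, and 7.55 and 15.4 TPM. All 6 MCM genes were higher in every pair, and Mcm4 the least so (0.02, 0.25 and 0.08). Cdt1 (0.26), Orc2 (0.19), Mcm10 (0.41) and Rrm2 (0.46) had the other smallest p-values. Rrm2 differed in sign between pairs, at -0.23, 0.30 and 1.30 log2. With the culture number as a replicate block no member passed either (lowest adjusted p = 0.443 by limma). In that fit 10 were under an unadjusted p of 0.05, all higher with ENU. The share of all genes at that p was not counted there, so the 10 have no background to be read against. For no member were all ENU libraries above all mock libraries, or all below, against 2.80% and 4.27% of all genes.

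**Figure D5:**
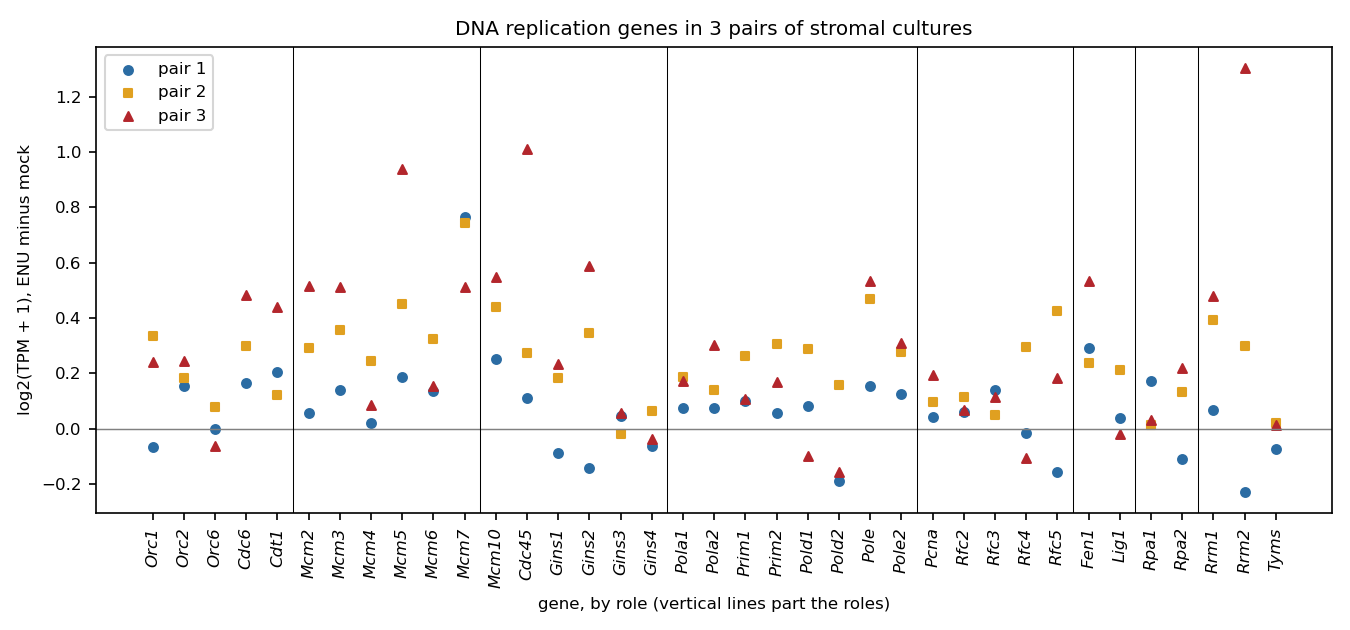
Difference in log2(TPM + 1), ENU minus mock, for 37 members (Rfc1 not shown) in each of 3 pairs of stromal cultures with the same number, 1 point per pair and gene. Mcm7 lies between 0.51 and 0.77 in all 3 pairs, and Rrm2 between -0.23 and 1.30.

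Other genes of the cycle were read beside the members. Of 39 further replication genes 38 were measured in each table, and none passed in any of the 7 comparisons. Those with the smallest p in AML against MDS were Gmnn, the inhibitor of Cdt1 (50.9 ± 9.23 in MDS and 34.8 ± 7.53 in AML, SD, n = 6; -0.54, adjusted p = 0.0856), Tk1 (-0.51), Rnaseh2c (-0.60) and Rnaseh2b (-0.33). Of 29 regulators of S phase 3 fell in AML, and none rose, beside 3.20% of all genes called. These calls were lost without AML 5, without AML 6, without any 1 MDS library, and against AML with ENU on both sides alone, where the adjusted p-values were 0.0616 to 0.113 and at most 1 gene of the table passed. E2f8, a repressor of the E2F family, was 273 ± 56.0 in MDS and 127 ± 31.3 in AML (-1.11, adjusted p = 0.0336). Rb1, which holds E2F factors in check, was 242 ± 86.0 and 111 ± 27.5 (-1.09, adjusted p = 0.0435). E2f2 was 997 ± 293 and 372 ± 220 (-1.62, adjusted p = 0.0499), and Ccna2 stood just outside (-1.06, adjusted p = 0.0536). All 4, and Tfdp2, an E2F partner (-1.69, adjusted p = 0.0538), were lower without overlap, as 2.13% of all genes were. The median of these regulators was -0.44. Among 22 mitosis genes none passed, but 21 differences were negative with a median of -0.53, and Mki67 was 2537 ± 1102 in MDS and 1066 ± 406 in AML (-1.25, adjusted p = 0.0598). Without AML 2 that median was -0.27 with 18 negative. The members' median of 0.03 stands beside these values; the difference between the lists was not tested. The erythroid marker sums given above were lower in AML too, and their part was not tested.

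In the other comparisons no gene of the 3 lists passed. After transplant all 22 mitosis genes were positive in LSK cells with a median of 0.57, led by Ube2c (120 ± 4.14 in WT and 255 ± 2.05 in transplanted WT, SD, n = 3; 1.08, adjusted p = 0.233), and the inhibitor Cdkn2c was 15.7 ± 5.58 and 44.6 ± 7.33 (1.49, adjusted p = 0.223). With the 3 libraries of high totals left out 6 mitosis genes passed, all higher, among the raised number of genes that this fit called (given above). In EAP cells Cenpf (0.65) and Cenpe (0.52), motor and kinetochore genes of mitosis, were above transplanted WT with adjusted p = 1.00. With ENU Cdkn1c, an inhibitor of the cycle, was 2.35 ± 2.41 against 11.2 ± 3.46 in EAP without it (-2.16, adjusted p = 0.909). In AML with ENU all 22 mitosis genes were positive (median 0.35), but 20 of them were negative without AML 2 (median -0.59). Ccnd2 was 137 ± 112 against 13.6 ± 15.7 (3.43, adjusted p = 0.102) in AML with ENU. In stromal cells all 22 were higher with ENU in every pair (median 0.45), though the unpaired fit without mock 3 had all 22 negative (median -0.25). Orc4 was 12.6 ± 1.42 TPM against 8.99 ± 1.10 (0.45, adjusted p = 1.00).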

How the data were processed

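The LSK and bone marrow tables hold a normalised signal per gene as deposited by the authors; column totals of 803746 to 1437201 show that it is not plain CPM. The stromal table holds TPM as deposited by the authors, with totals of 924162 to 939600. Per the submitters' processing notes the build was mm10, and bcl2fastq, FastQC, TopHat, SAMtools and edgeR were used; the sources used here do not give the counting program or its use of strand, so Gins2, Fen1, Rfc2 and Orc2, whose exons overlap other genes by 854 to 2758 bases on the opposite strand, and Pcna and Tyms, which have pseudogenes, are less certain. Per the labels' protocols the libraries were stranded mRNA libraries.

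In the marrow, values were whole multiples (within 0.05 read) of 1 read per library for 99.99 to 100% of values, giving 17341986 to 21698808 reads. LSK and stromal depth is unknown. Among marrow rows, 155 alias names with values identical to another row were merged.

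Tests used limma 3.58.1 in R 4.3.3 (eBayes with trend) on log2(value + 1) over all genes that reached 1 in enough libraries to fill the smallest group, with Benjamini-Hochberg adjustment over all of them and a threshold of 0.05. Differences are on this scale, which understates low genes, and ± after one is its SE. The 4 LSK groups were fitted together, as were all 12 marrow libraries. edgeR 4.0.16 (quasi-likelihood) was run on the recovered marrow reads. Depth sets the counting error of single values, and the number of libraries sets the precision of the comparisons. On simulated data the limma fit was checked for recovery of known changes. A state without overlap means that every library of a group is above, or below, every library of the other. At an unadjusted p, the share of all genes was counted in the main fits only. Counts of members from other fits have no such share beside them.

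The rule for naming genes was every member past the threshold, otherwise the 5 with the smallest unadjusted p, with up to 4 genes of each other list and Mcm2 to Mcm7 in each comparison. Members, lists and rules were chosen with earlier results of these data known. Same-numbered stromal cultures deviated together (correlations of deviations from the group means 0.50, 0.67 and 0.72 over 12089 genes), so their numbers were taken as pairs; LSK and marrow numbers were not. Gene positions and lengths are from GENCODE vM21 and promoters from RefSeq. Alternatives were a pseudocount of 0.1, testing unfiltered genes, rescaling by median of ratios, a block for the replicate number, each library left out in turn, and narrower sets of samples; leaving out, or adding a term for, libraries that stand apart was chosen after seeing the data. Python 3 scripts with pandas made the summaries.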

Additional observations from a re-analysis of the deposited data

Results flagged for a closer look

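In 2 of 76 pairs of a member and a group of 6 libraries, 1 library stood apart from the rest by Dixon's criterion (critical value 0.625), which chance meets in about 1 in 20 groups. Both were MDS 1. Orc1 was 70.81 there and 24.9 to 36.1 in the other MDS libraries, and Gins3 was 30.113 there and 16.0 to 20.7 in the others. MDS 1 also had the highest erythroid marker sum (25374) and the highest Rrm2 (454) of the marrow libraries; the part of these in the 2 values was not tested.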

How the results depend on the processing

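The count of members passing was 0 in each of the 7 comparisons, and 86 of 93 alternative counts were also 0. For transplanted WT against WT it was 3 with WT 2, transplanted WT 3 and EAP 1 left out and 3 with a term for them, both chosen after seeing the data. Leaving out 1 library at a time gave 0 to 1 for AML against MDS and 0 to 4 for ENU exposure in AML, and 0 throughout in the other comparisons. The Rrm2 difference in stromal cells ran from -0.13 (without mock 3) to 0.97 (without mock 1) when 1 library was left out, against 0.46 with all; the cause was not tested. With the replicate block 0 members passed in every comparison, and the genes called in AML against MDS numbered 141 against 361. That count ran from 0 to 2472 when 1 library was left out, and the calls of E2f8, Rb1 and E2f2 went with it; E2f2 also missed the threshold with a pseudocount of 0.1 and in edgeR. LSK and marrow libraries share only a number. LSK and stromal depth is unknown, so counting error cannot be given there.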
